A study of Mus musculus with 4 samples.

Results

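The genes described here are 31 of the 32285 genes in the count tables: 17 that carry glucose through glycolysis to lactate, and 14 others of the hypoxia-inducible factor (HIF) pathway. The members were taken by symbol, and all 31 were found. The glycolytic genes are the glucose transporter Slc2a1 (GLUT1), the hexokinases Hk1, Hk2 and Hk3, Gpi1, the phosphofructokinases Pfkl and Pfkp, Aldoa, Tpi1, Gapdh, Pgk1, Pgam1, Eno1, Pkm, Ldha, the lactate exporter Slc16a3 (MCT4) and Pfkfb3, which makes the activator of phosphofructokinase. The others are Pdk1, Hif1a, Egln1, Egln3, Bnip3, Bnip3l, Ddit4, Adm, Ero1l, Ndrg1, P4ha1, Mif, Higd1a and Ankrd37. They were measured in macrophages sorted from perigonadal white fat of mice as live CD45+ cells, negative for a lineage stain and positive for CD11b and CD64, and profiled with the 10x Genomics 3′ workflow. The 4 libraries were wild type on a high-fat diet (WT HFD), conditional knockout of BLIMP1 on that diet (CKO HFD), wild type on a normal diet (WT normal diet) and knockout on it (CKO normal diet). Each group is 1 library, so group and library preparation cannot be told apart. No source used here states the age of the mice, how many were pooled, how long the diets lasted, what drives the knockout or which exons it removes.

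Glycolysis turns glucose into pyruvate, and lactate dehydrogenase then makes lactate, which lets a cell gain ATP without oxygen. When oxygen is low, prolyl hydroxylases of the Egln family stop marking the HIF alpha subunit for destruction, and the stabilised factor drives glucose transport, most glycolytic enzymes and a wider set of targets. Macrophages also raise glycolysis on inflammatory activation, and obese fat is known to contain poorly oxygenated regions.

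The promoters shown were picked by size of fold change between cell sets, which are defined further below. They belong to members called higher in Arg1-positive cells and glycolytic members called lower in Lyve1-positive cells. Their copies of ACGTG or GCGTG, the core letters of the hypoxia response element, are marked. ACGTG is also part of CACGTG, the E-box, so a match can belong to either element. Of the 31 members, 29 had a promoter window (250 bases before to 50 after the start, RefSeq, GRCm38.p6), and 24 of these 29 first windows (82.8%) held one of the letters on either strand, against 43.8% of the first windows of all genes. All genes here include those not expressed in these cells. Both motifs contain CG, and the windows were not matched for CG content. The members were also listed as genes of these pathways, so the higher share is no test of their regulation. The split was 12 of 17 for glycolytic members and 12 of 12 for the others. The glycolytic members without a match in the first window were Hk1, Gpi1, Aldoa, Tpi1 and Pkm. Of these, Hk1, Aldoa and Pkm held a match in another window of the same gene. A match is a description and not a binding site. Below, capitals mark the matches, written CACGT or CACGC where the match is on the other strand, and each window reads 5′ to 3′ on the gene's strand.
The windows are Egln3 at chr12:54203825-54204124 (minus strand), Pdk1 at chr2:71872974-71873273 (plus), Slc2a1 at chr4:119108495-119108794 (plus), Mif at chr10:75860228-75860527 (minus) and Slc16a3 at chr11:120948817-120949116 (plus).
Egln3: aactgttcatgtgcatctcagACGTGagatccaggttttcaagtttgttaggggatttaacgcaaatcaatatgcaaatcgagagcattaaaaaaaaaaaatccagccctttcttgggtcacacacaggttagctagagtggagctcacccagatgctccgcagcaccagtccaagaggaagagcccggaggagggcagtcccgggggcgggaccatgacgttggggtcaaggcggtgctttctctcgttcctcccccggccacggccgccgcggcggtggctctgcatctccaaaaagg
Pdk1: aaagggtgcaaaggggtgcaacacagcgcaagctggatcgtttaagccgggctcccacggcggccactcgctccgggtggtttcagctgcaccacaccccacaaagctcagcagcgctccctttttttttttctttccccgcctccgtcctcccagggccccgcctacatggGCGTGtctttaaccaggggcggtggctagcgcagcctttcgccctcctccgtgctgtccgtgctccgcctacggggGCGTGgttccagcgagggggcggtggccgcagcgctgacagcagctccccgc
Slc2a1: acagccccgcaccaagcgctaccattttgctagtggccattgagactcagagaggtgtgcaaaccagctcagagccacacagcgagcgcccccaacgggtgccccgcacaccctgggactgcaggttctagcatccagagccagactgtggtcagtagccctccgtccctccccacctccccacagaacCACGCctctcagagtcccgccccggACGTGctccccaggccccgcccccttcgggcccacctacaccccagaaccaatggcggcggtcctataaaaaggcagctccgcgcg
Mif: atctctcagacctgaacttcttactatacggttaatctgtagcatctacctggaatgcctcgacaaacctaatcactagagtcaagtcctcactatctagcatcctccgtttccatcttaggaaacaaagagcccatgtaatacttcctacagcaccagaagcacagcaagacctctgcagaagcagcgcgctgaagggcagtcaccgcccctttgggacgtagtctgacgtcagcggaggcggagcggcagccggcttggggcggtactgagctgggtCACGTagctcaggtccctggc
Slc16a3: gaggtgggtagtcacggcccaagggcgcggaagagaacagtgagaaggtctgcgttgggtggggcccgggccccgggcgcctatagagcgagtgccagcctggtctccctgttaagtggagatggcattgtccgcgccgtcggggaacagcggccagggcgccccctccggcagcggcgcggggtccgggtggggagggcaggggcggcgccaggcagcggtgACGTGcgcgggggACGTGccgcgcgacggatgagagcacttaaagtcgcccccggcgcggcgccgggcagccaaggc

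After filtering, 4650 WT and 8731 CKO cells remained under HFD and 3705 WT and 4302 CKO cells under normal diet, and values follow that order throughout. WT HFD was sequenced deeper than the others, with a median of 14492.5 UMIs per cell against 3923 to 4092 in the other 3. Levels and ratios across groups are therefore given after thinning each cell to 2000 UMIs, over 4583, 7655, 3030 and 3482 cells, as CPM (UMIs per 1000000) with exact 95% Poisson intervals that cover counting error only. All 8 macrophage markers were detected in every library, at a summed 7128, 8405, 3320 and 3757 CPM. Cells with markers of another cell type made up 3.38%, 1.85%, 8.35% and 6.38%. Summed fibroblast markers stood at 449 and 208 CPM under HFD against 25.7 and 30.2 CPM under normal diet, and dendritic markers at 54.1 and 42.1 against 288 and 241 CPM. Prdm1, which encodes BLIMP1, stood at 22.5, 22.1, 29.4 and 36.0 CPM, with overlapping intervals of WT and CKO under each diet. Without thinning it stood at 21.9, 22.9, 22.9 (20.9 to 24.95) and 28.4 CPM (26.3 to 30.5), higher in CKO than in WT under normal diet without overlap. A 3′ tag can lie outside the deleted part, so this checks nothing about the deletion. Pairs of libraries shared 2 to 9 cell barcodes.

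Gapdh, the glyceraldehyde phosphate dehydrogenase, was the highest member in each library, at 619 CPM (603 to 635), 500.1 CPM (489 to 511), 213 CPM (202 to 225) and 248 CPM (236 to 260). Ldha, which makes lactate, stood at 273, 243, 188 and 181 CPM. Pkm, the pyruvate kinase of the last step before it, stood at 250.1, 207, 189 and 169 CPM. Both were higher in the HFD libraries. For Ldha no interval under HFD overlapped one under normal diet, while for Pkm the intervals of CKO HFD (199.7 to 214) and WT normal diet (178.0 to 200.04) overlapped. Of the hexokinases, which trap glucose in the cell, Hk2 was the most abundant at 57.9, 46.6, 108 and 98.5 CPM. Hk1 and Hk3 lay between 21.3 and 35.3 CPM, and Slc2a1 between 11.6 and 19.8 CPM. A 3′ tag is counted once per transcript, so these levels are not divided by gene length. Reads shared with near-identical copies, as Gapdh, Eno1, Ldha and Pkm have, may be lost or miscounted. In GRCm38 (GENCODE M21) Gapdh spans chr6:125161715-125166467 and Ldha chr7:46841475-46855627, while Mif spans chr10:75859353-75860240 and Slc16a3 chr11:120948480-120960868.

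Among the other HIF pathway genes, Hif1a, the regulated subunit of the factor, stood at 79.6, 95.9, 169 and 168 CPM. Mif, a cytokine, stood at 113, 186, 64.0 and 56.7 CPM. Bnip3l, a receptor for the removal of mitochondria, varied little, from 90.2 to 111 CPM, and its relative Bnip3 from 10.3 to 14.8 CPM. At the low end Egln3, an oxygen-sensing hydroxylase, was at 0.982 to 2.01 CPM, on 9, 20, 11 and 14 UMIs. Adm, the peptide hormone adrenomedullin, was at 3.71, 3.00, 0.495 and 0.431 CPM. Of its UMIs, 32 of 34 in WT HFD and 44 of 46 in CKO HFD lay in the 48 and 59 cells with fibroblast markers, and each normal-diet library held 3 UMIs in all. Few Adm UMIs therefore came from the other cells of the HFD libraries.

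**Figure D1:**
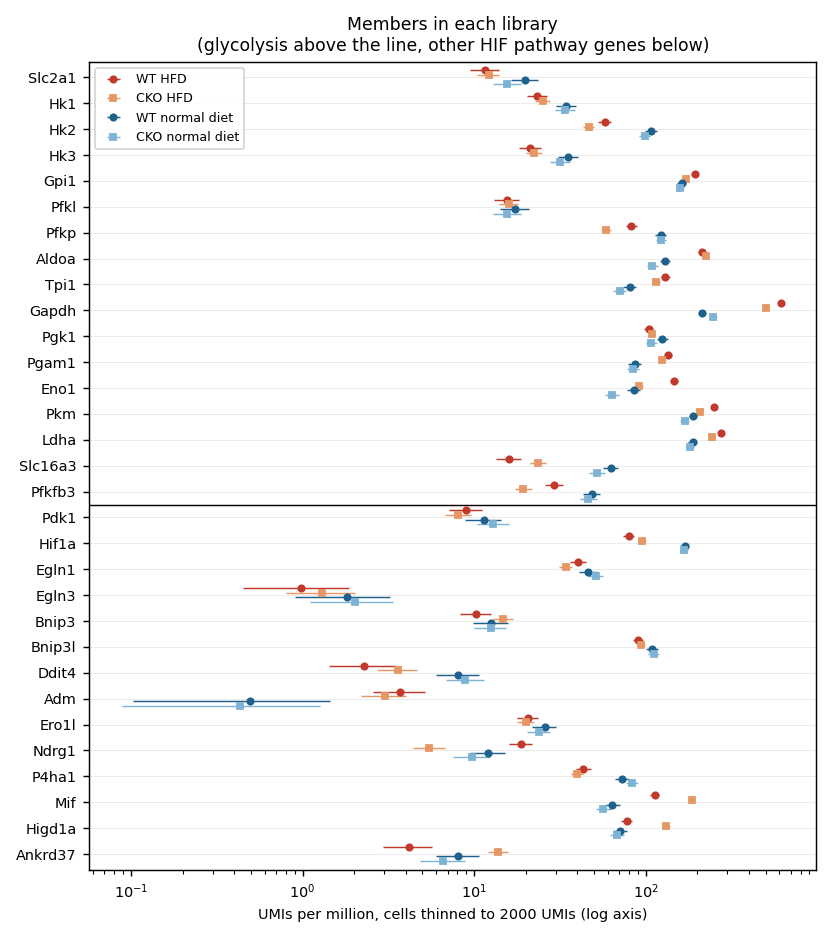
Level of each member in each library, as CPM on a log axis after thinning to 2000 UMIs per cell; points are libraries and bars are exact 95% Poisson intervals for counting error. Gapdh is highest at 213 to 619 CPM, and Adm and Egln3 are lowest, with wide intervals.

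The members were also summed by part of the pathway. The 8 genes from aldolase to lactate (Aldoa, Tpi1, Gapdh, Pgk1, Pgam1, Eno1, Pkm and Ldha) summed to 1871, 1614, 1097 and 1035 CPM. The 7 genes of uptake and the first steps (Slc2a1, the 3 hexokinases, Pfkl, Pfkp and Pfkfb3) summed to 241, 200.3, 386 and 364 CPM, in the opposite order between diets. Gpi1 and Slc16a3 were in neither sum. The 8 genes span 3.71 to 23.0 kb and the 7 span 15.4 to 111 kb, and ratios between diets fell with gene span, as given below. The part of span in these sums was not tested. Without Gapdh the other 16 glycolytic members summed to 1702, 1508, 1495 and 1362 CPM. The 14 other HIF pathway genes summed to 514, 652, 613 and 615 CPM. Without Mif they summed to 401, 466, 549 and 559 CPM, lower under HFD in both genotypes. A cell thinned to 2000 UMIs held a median of 4, 3, 3 and 3 UMIs of the glycolytic genes, with means of 4.64, 4.02, 3.42 and 3.22, while the means for the other HIF pathway genes were 1.03, 1.30, 1.23 and 1.23.

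The diet comparison asks how the members differ between macrophages of mice on the high-fat and the normal diet. Under HFD Aldoa, Tpi1, Gapdh and Mif were higher and Hk2, Pfkfb3, Slc16a3, Hif1a and P4ha1 lower, in both genotypes. This comparison and that between genotypes use the same 4 libraries. With 1 library per group there is no test: a member is counted when its ratio of (CPM + 1) is at least 1.5, and it is measured when it reaches 10 CPM in 1 of the libraries. In WT, 27 members were measured, 7 counted higher and 7 lower. Of all 8402 genes measured, 13.4% were higher and 29.1% lower. In CKO, 6 of 27 were higher and 7 lower, against 12.6% and 45.0% of 8319 genes. The share of members counted higher was thus above the share of all genes in both. The share counted lower, 7 of 27, was below it in CKO and near it in WT. Fibroblast and dendritic markers also differed between diets, as given above. Without cells carrying markers of other types 7 members were higher and 7 lower in WT, and 6 and 7 in CKO.

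Gapdh was 2.91 times higher (2.73 to 3.09, exact conditional binomial interval for counting error) in WT and 2.02 times (1.91 to 2.13) in CKO. Aldoa, the aldolase, went from 130 to 212 CPM in WT and from 110 to 224 CPM in CKO, ratios of 1.64 and 2.04. Tpi1, the triose phosphate isomerase beside it, went from 80.7 to 130.3 CPM and from 70.6 to 115 CPM, ratios of 1.61 and 1.63. Pgk1, which acts after Gapdh, was not counted in either genotype. It had a UMI in 17.8% of WT HFD and 21.0% of WT normal-diet cells, and in 18.1% and 19.1% in CKO. Pgam1 and Eno1, which act after Pgk1, passed 1.5-fold in WT, with ratios of 1.56 and 1.72, and lay just under it in CKO, with 1.48 and 1.42. Ldha stood just under the limit in both, at 1.45 and 1.34. Mif was 1.76 times higher in WT and 3.28 times in CKO. Ndrg1, a stress-induced protein, counted as higher in WT alone, at 18.8 against 12.0 CPM, and its log2 ratio of 0.60 became −0.023 when cells were thinned to 1000 UMIs. Higd1a, a small mitochondrial protein, and Ankrd37, a HIF target with ankyrin repeats, counted as higher in CKO alone, with ratios of 1.94 and 2.10.

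Slc16a3 had the lowest diet ratio of the measured members in WT, at 15.9 against 62.5 CPM, 3.93 times lower (3.24 to 4.79). In CKO it was 2.22 times lower, at 23.6 against 52.3 CPM. Hif1a was 2.12 times lower in WT and 1.75 times in CKO, and Hk2 1.86 and 2.11 times. Pfkfb3 was 1.67 and 2.39 times lower, and P4ha1, a collagen prolyl hydroxylase, 1.69 and 2.11 times. Slc2a1 and Hk3 passed the limit in WT alone, at 1.71 and 1.66 times lower, and Pfkp and Pdk1 in CKO alone, at 2.09 and 1.60 times. Ddit4, an inhibitor of growth signalling, was at 2.29 and 3.59 CPM under HFD and at 8.09 and 8.90 CPM under normal diet, under the limit for measurement.

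**Figure D2:**
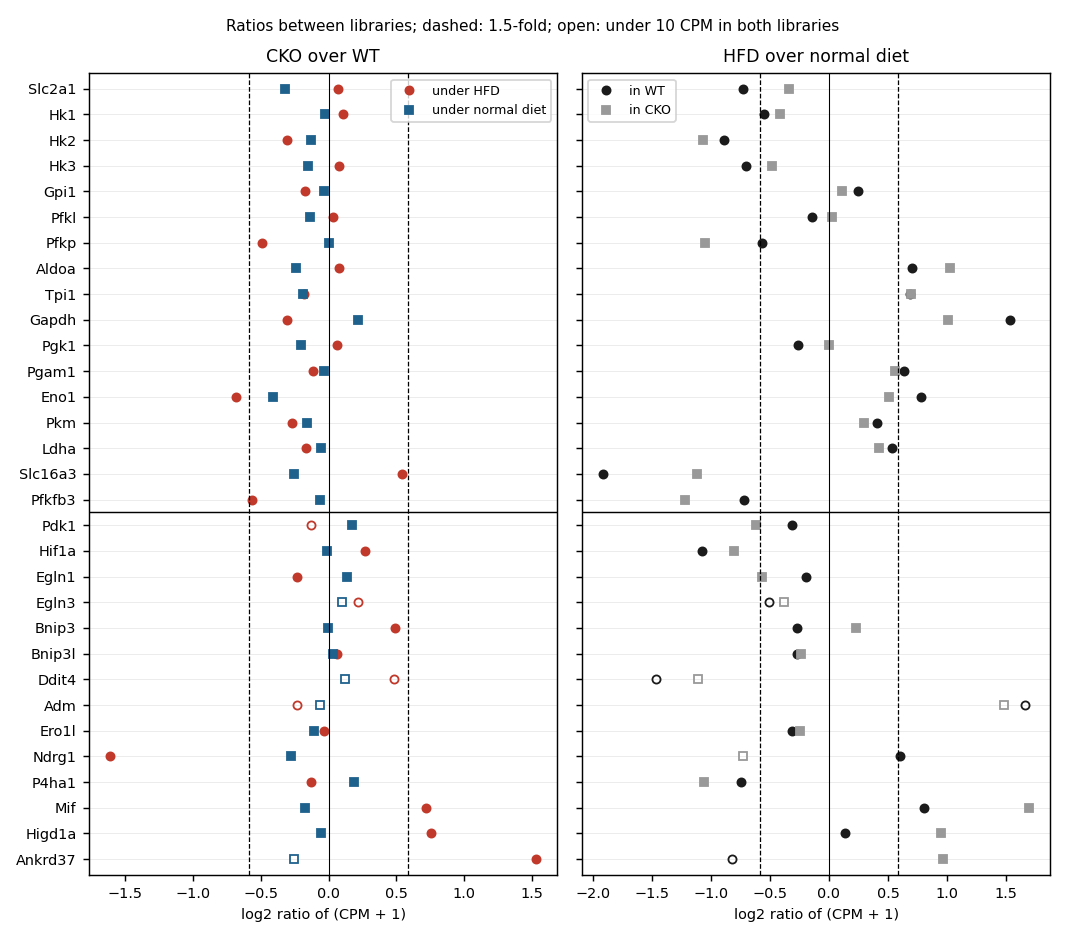
Log2 ratio of (CPM + 1) for each member: CKO over WT under each diet (left) and, for each genotype, HFD over normal diet (right). Dashed lines mark 1.5-fold and open symbols members under 10 CPM in both libraries. Aldoa, Tpi1, Gapdh and Mif lie right of the upper line in both genotypes, and Slc16a3, Hk2, Pfkfb3, Hif1a and P4ha1 left of the lower one.

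The same ratios were taken within cell sets. Within Trem2-positive cells 8 of 17 glycolytic genes were higher under HFD and 3 lower in WT, against 16.3% and 31.9% of genes, and 7 and 2 in CKO, against 16.0% and 47.1%. Ldha was among them, at 322 against 177 CPM in WT and 288 against 133 CPM in CKO. Within Ccr2-positive cells 2 were higher and 5 lower in WT (12.1% and 23.1% of genes) and 3 and 4 in CKO (11.8% and 42.0%). Within Lyve1-positive cells 2 of 14 measured were higher and 0 lower in WT (13.2% and 28.1%) and 3 of 16 each way in CKO (12.4% and 38.8%). Gapdh was higher within all 3 sets in both genotypes. Within the few Arg1-positive cells 4 of 9 were higher and 1 lower in WT (29.5% and 23.9%) and 10 of 14 and 0 in CKO (30% and 34.0%).

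These ratios move with the scaling and with gene length. Over all genes the log2 ratio had a median of −0.23 in WT and −0.48 in CKO, which TMM factors brought to 0.01 and 0.05. With TMM factors the counts of members higher and lower were 9 and 3 in WT and 12 and 2 in CKO, and among all genes 1766 higher and 1414 lower in WT and 2284 and 1844 in CKO. In CKO the log2 ratio of Slc16a3 was then −0.61, of Hif1a −0.29 and of Hk2 −0.55, all still below 0, while Slc2a1, Hk1, Hk3, Bnip3l and Ero1l, none of them counted, changed sign. All-gene medians fell with gene span, from 0.23 in the shortest of 5 equal bins to −0.59 in the longest in WT and from 0.37 to −1.28 in CKO. Gapdh, Aldoa, Tpi1 and Mif are short genes (0.888 to 5.52 kb), while Hk2, Pfkfb3, Hif1a, P4ha1 and Pfkp span 46.2 to 82.6 kb. Centred on genes of like span, Gapdh had a log2 ratio of 1.24 in WT and 0.45 in CKO, and Mif 0.51 and 1.14, so that Gapdh in CKO and Mif in WT were then under 1.5-fold. Slc16a3, at 12.4 kb, had −1.97 and −1.10. Pfkfb3 moved to −0.17 and −0.11, and Hif1a to −0.76 and −0.17. The part of span in these ratios beyond that was not tested.

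**Figure D3:**
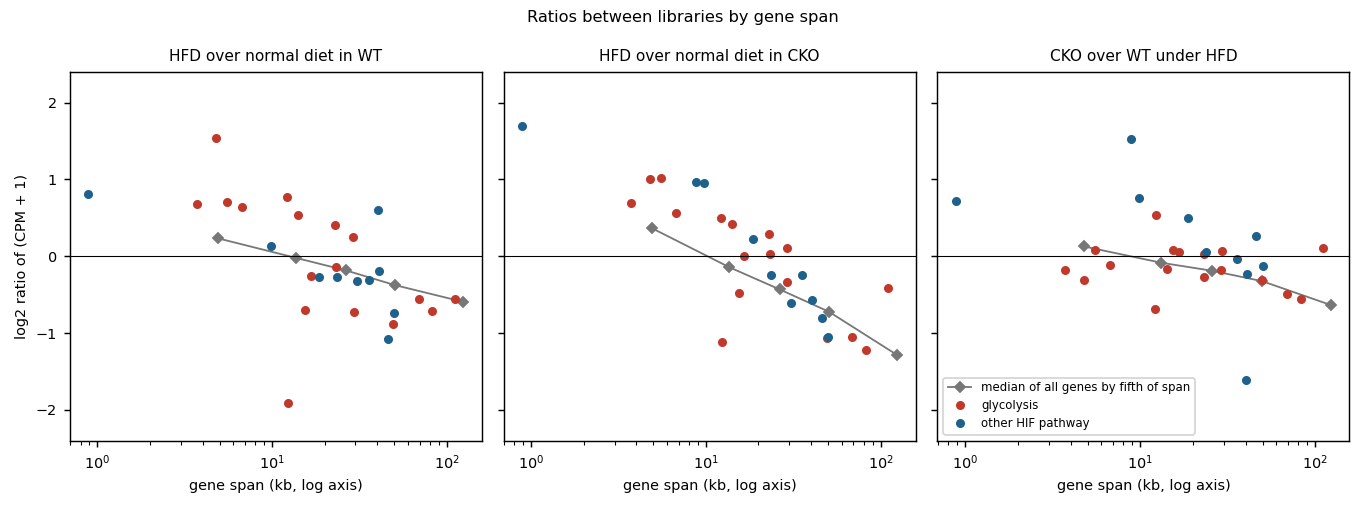
Log2 ratio of (CPM + 1) against gene span in kb (log axis) for the measured members, with grey diamonds for the median of all genes in each of 5 bins of span. In both diet comparisons short members lie higher and long members lower, as do all genes, and Slc16a3 (12.4 kb) lies far under genes of its span. In the last panel, CKO over WT under HFD, the all-gene median also falls with span.

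Other genes of the pathways, from lists fixed with earlier results of these data known, gave 1 higher and 8 lower of 21 measured glycolysis-related genes in WT and 1 and 9 of 22 in CKO. Of the other hypoxia-related genes, 3 were higher and 10 lower of 23 in WT and 6 and 8 of 21 in CKO. Hilpda and Plin2, which act in lipid droplets, were higher in both. Hilpda went from 29.2 to 84.7 CPM in WT and from 21.5 to 124 CPM in CKO, and Plin2 had log2 ratios of 1.70 and 1.52. Bhlhe40, a transcriptional repressor, was lower (−2.44 and −1.60), as was the glucose transporter Slc2a3 (−1.12 and −2.10).

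The knockout comparison under HFD asks whether loss of BLIMP1 goes with a different level of the members. Of 27 measured, 3 were higher and 2 lower in CKO HFD, against 5.3% and 19.8% of 7863 genes. Ankrd37 went from 4.15 CPM (2.93 to 5.69) to 13.8 CPM (12.1 to 15.8), 3.34 times higher. Higd1a went from 77.9 to 132 CPM, 1.70 times, and Mif from 113 to 186 CPM, 1.65 times (1.53 to 1.77). All 3 belong to the HIF pathway genes outside glycolysis. Ndrg1 went the other way, from 18.8 CPM (16.1 to 21.8) to 5.49 CPM (4.38 to 6.79), 3.42 times lower. Eno1, the enolase, fell from 147 to 91.1 CPM, 1.61 times lower. No other glycolytic gene passed the limit, and the other 16 had log2 ratios from −0.56 (Pfkfb3) to 0.54 (Slc16a3). The glycolytic median was −0.17 and that of the other HIF pathway genes 0.16, beside −0.21 for all genes. With TMM factors the all-gene median was 0.03, the members 5 higher and 1 lower, all genes 938 higher and 773 lower, and Eno1 at −0.44 was under the limit. All-gene medians fell with gene span here too, from 0.13 in the shortest bin to −0.63 in the longest. Mif, Ankrd37 and Higd1a span 0.888, 8.81 and 9.8 kb, Eno1 12.2 kb and Ndrg1 40.3 kb. The part of span was not tested.

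The comparison was repeated within cells that held a UMI of Trem2, Ccr2, Lyve1 or Arg1 after thinning. Of all genes, 6.06% were higher and 21.7% lower within Trem2-positive cells, 5.72% and 21.2% within Ccr2-positive, 11.1% and 20.3% within Lyve1-positive and 17.6% and 20.6% within Arg1-positive cells. Within Ccr2-positive cells Mif stood at 192 CPM in CKO HFD and 97.8 CPM in WT HFD, and within Trem2-positive cells at 235 and 146 CPM. Ndrg1 stood at 6.02 and 20.1 CPM in Ccr2-positive and at 6.26 and 19.2 CPM in Trem2-positive cells. Ankrd37 stood at 15.6 and 3.91 CPM, and at 17.7 and 3.05 CPM. Each of these ratios passed 1.5-fold. Higd1a passed the limit also within Lyve1-positive cells, at 96.2 and 60.5 CPM. Slc16a3, just under the limit over all cells, passed it within Trem2-positive (24.8 against 11.3 CPM) and Ccr2-positive cells (29.8 against 18.2 CPM). Within Arg1-positive cells, 474 in CKO HFD and 107 in WT HFD, 6 of 15 glycolytic genes measured were higher in CKO and 1, Eno1, lower, and 3 of 7 other HIF pathway genes were higher and 0 lower. The median log2 ratio was 0.41 for the glycolytic genes and 0.29 for the others, against −0.04 over all genes. The WT HFD values of the 6 rest on 3 to 29 UMIs. Hif1a stood at 184 and 65.4 CPM, on 174 and 14 UMIs. Of these Arg1-positive cells 33.1% in CKO HFD and 60.7% in WT HFD were also Trem2-positive. The part of this overlap in the differences was not tested.

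Under normal diet no member was counted in either direction, of 27 measured, against 0.789% and 0.983% of 8238 genes. The log2 ratios ran from −0.41 (Eno1) to 0.22 (Gapdh). Mif stood at 64.0 and 56.7 CPM and Higd1a at 70.8 and 68.1 CPM, with overlapping intervals. Ndrg1 stood at 12.0 CPM (9.44 to 15.2) in WT and 9.76 CPM (7.58 to 12.4) in CKO. Within sets, Trem2-positive cells had Pfkfb3 higher (87.1 against 34.2 CPM) and Hk3 and Eno1 lower in CKO, against 8.96% and 5.60% of genes. Lyve1-positive cells had Tpi1 and Bnip3 lower, against 6.66% higher and 3.71% lower. Arg1-positive cells had Ldha and Hif1a lower, on 33 cells each, against 12.5% and 13.4%, and Ccr2-positive cells had no member counted, against 1.64% and 1.20%. Among the other listed genes Plin2 alone was counted, lower in CKO at a log2 ratio of −0.75, and under HFD at −0.92.

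The members were then compared between sets of cells of the same library. A cell counts as positive for Trem2 (a lipid receptor of macrophages in obese fat), Arg1 (arginase), Lyve1 (a hyaluronan receptor of resident macrophages) or Ccr2 (the receptor that brings in monocytes) with at least 1 UMI after thinning to 2000. Trem2-positive cells made up 35.7%, 24.0%, 7.72% and 6.92% of cells, Arg1-positive cells 2.33%, 6.19%, 1.09% and 0.948%, Lyve1-positive cells 6.13%, 14.3%, 13.4% and 21.0%, and Ccr2-positive cells 64.1%, 58.6%, 60.0% and 57.1%. Without thinning the shares were 71.9%, 35.7%, 14.0% and 14.0% for Trem2, 9.46%, 9.79%, 1.78% and 1.79% for Arg1, 12.4%, 20.7%, 20.8% and 29.8% for Lyve1 and 84.7%, 69.0%, 63.2% and 60.7% for Ccr2. Of the fibroblast-marker cells under HFD, which should lack these genes, 1 of 48 and 3 of 59 were Trem2-positive, 0 and 3 Arg1-positive, 1 and 0 Lyve1-positive and 2 and 5 Ccr2-positive, at median depths of 16081 and 3709 UMIs beside 14599 and 4321 over all cells. Negative cells include cells whose transcript was missed. The sets overlap. Also Ccr2-positive were 53.6%, 54.4%, 50.4% and 50.6% of Trem2-positive and 53.4%, 48.4%, 42.8% and 37.4% of Lyve1-positive cells. Also Trem2-positive were 60.7%, 33.1%, 15.2% and 6.06% of Arg1-positive cells. All UMIs of these cells, without thinning, were summed per set and library, so CPM between sets differs from the thinned CPM across groups. The sums were tested with edgeR's quasi-likelihood test with library as a block over the 4 libraries, with Benjamini-Hochberg adjustment over all genes. The libraries differ in diet and genotype, so the test asks what is shared between them.

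Lyve1-positive cells had less of most members. Of 31 tested, 20 were lower and 2 higher, against 19.8% lower and 15% higher of 12153 genes. Glycolytic members made up 13 of the 20, out of 17, and other HIF pathway genes 7, out of 14. Gapdh stood at 513, 366.5, 173 and 206 CPM in positive and at 677, 572, 290.5 and 333 CPM in negative cells, lower in each library, a log2 fold change of −0.72 ± 0.08 (SE; edgeR, adjusted p = 9.99e-05). Pkm stood at 179, 171, 158 and 146 CPM against 278, 243, 219 and 216 CPM (−0.65 ± 0.06, edgeR adjusted p = 5.04e-05). The positive value was below the negative one in all 4 libraries for both genes. Slc16a3 stood at 7.21, 13.2, 30.6 and 15.7 CPM against 15.6, 26.0, 59.7 and 56.8 CPM (−1.35 ± 0.15). Slc2a1 stood at 4.45, 5.70, 12.0 and 8.07 CPM against 11.8, 13.7, 19.2 and 18.1 CPM (−1.23 ± 0.14). Both ends of the pathway, uptake of glucose and export of lactate, were thus among the larger differences.

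Aldoa, Tpi1, Pgk1, Pgam1, Eno1 and Ldha were also lower, with log2 fold changes from −0.42 to −0.70, and so were Hk2, Pfkl and Pfkp, from −0.34 to −0.68. Of the other HIF pathway genes, Mif (−0.73), Higd1a (−0.60), Ankrd37 (−1.17), Ndrg1 (−0.56), Ddit4 (−0.95) and Hif1a (−0.24) were lower. Adm (−2.61) was lower as well, on 5, 1, 0 and 0 UMIs in the positive cells, and it was not tested once cells with markers of other types were left out. Hk3 and Pfkfb3 went the other way. Hk3 stood at 39.8, 28.8, 39.6 and 43.5 CPM against 22.4, 23.7, 28.8 and 26.7 CPM (0.47 ± 0.11, edgeR adjusted p = 0.00901), and Pfkfb3 had 0.54 ± 0.13. Both members called higher and 19 of the 20 called lower had the same direction in all 4 libraries, the exception being Hif1a in WT normal diet. Of the cell division list, 9 of 14 genes were lower in these cells and none higher, and of the dissociation list (stress genes raised by tissue digestion) 7 of 13 were higher and 1 lower. Without dividing cells 21 members were lower, and the part of dissociation was not tested.

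Genes listed beside the members moved alike for the pentose phosphate enzymes Tkt (−0.77) and Taldo1 (−0.68). In all, 11 of 32 glycolysis-related genes were lower and 3 higher. Of 27 hypoxia-related genes 8 were lower, with Vegfa, the vascular growth factor, at −1.91 and Hilpda at −1.49, and 10 were higher, with the iron uptake receptor Tfrc at 1.33 and Selenbp1 at 1.60.

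**Figure D4:**
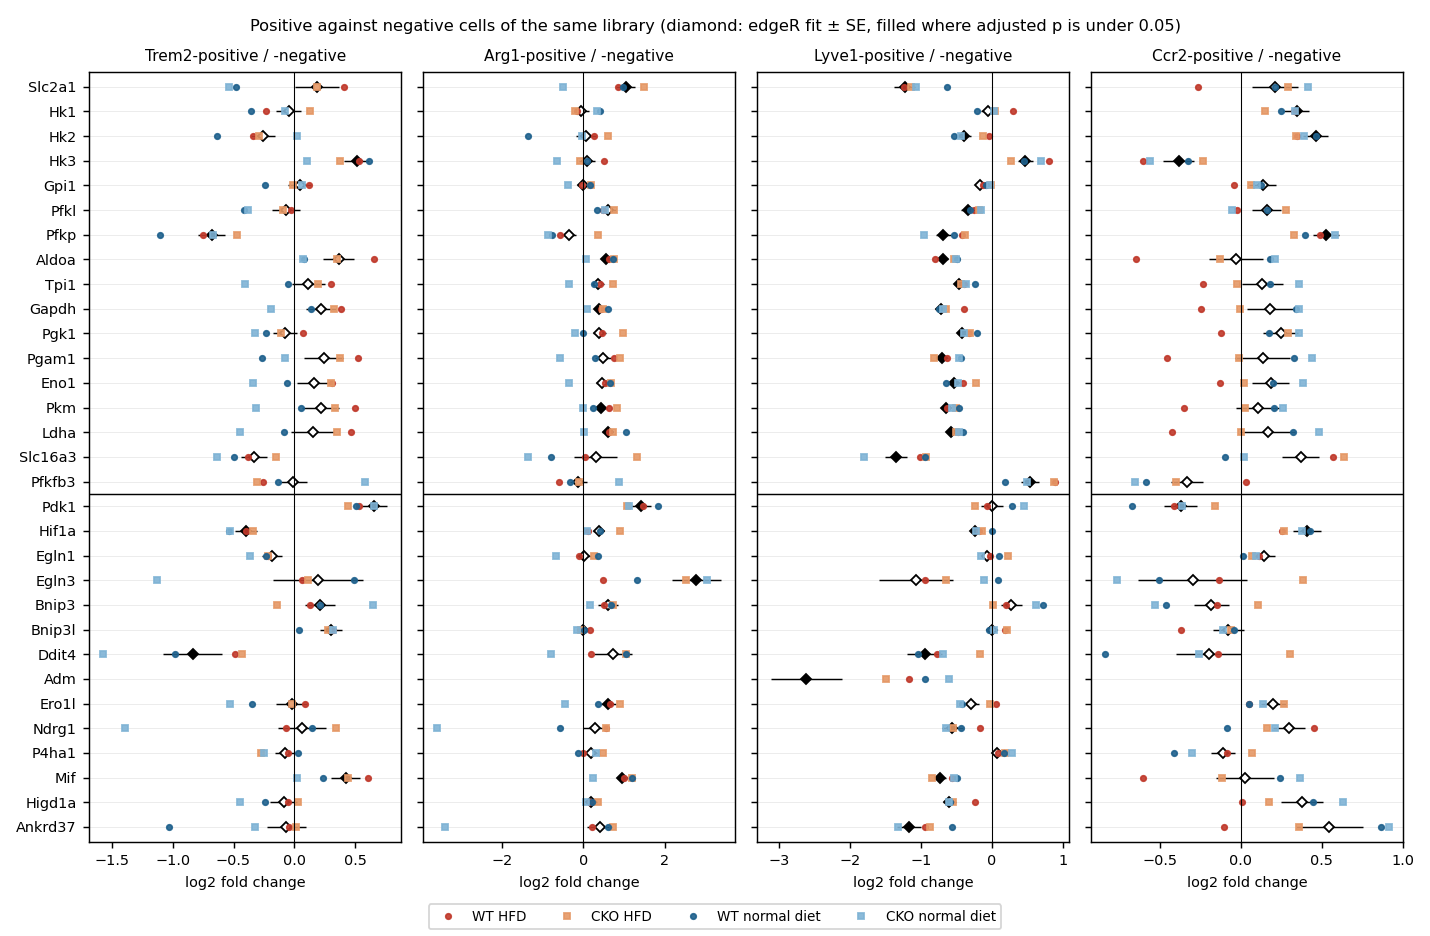
Log2 fold change of each member between positive and negative cells of 4 sets: diamonds are the edgeR fit ± SE, filled where the adjusted p is under 0.05, and coloured points the log2 ratio of (CPM + 1) in each library. In the Lyve1 panel most diamonds are filled and left of 0, and in the Arg1 panel the filled ones are right of it.

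Arg1-positive cells had more of 9 of 30 members tested and less of none, against 2.3% higher and 3.65% lower of 11944 genes. They are few, 107, 474, 33 and 33 cells. Pdk1, a kinase that inhibits pyruvate dehydrogenase, stood at 27.1, 15.9, 40.3 and 22.5 CPM in positive and 9.12, 6.99, 10.7 and 9.76 CPM in negative cells (1.42 ± 0.24, edgeR adjusted p = 0.000201). Mif stood at 241, 428, 181 and 86.2 CPM against 120, 185, 79.1 and 72.4 CPM (0.96 ± 0.14, edgeR adjusted p = 4.56e-05). Both were higher in each library, Mif by little in CKO normal diet. Slc2a1 stood at 20.7, 32.9, 36.3 and 11.2 CPM against 11.1, 11.1, 18.1 and 16.4 CPM (1.04 ± 0.23, edgeR adjusted p = 0.0038), and it was the other way round in CKO normal diet, on 3 UMIs. Ldha had 0.61 ± 0.14, Aldoa 0.56 ± 0.13, Pkm 0.45 ± 0.14 and Gapdh 0.38 ± 0.11. Egln3, which is itself a HIF target, had 2.77 ± 0.61 on 3, 26, 1 and 4 UMIs. The oxidase Ero1l had 0.61 ± 0.19, and 6 of the 9 had the same direction in all 4 libraries.

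Without CKO normal diet 14 members were higher, and without WT HFD, CKO HFD or WT normal diet 5, 3 and 4. Dividing cells were fewer among Arg1-positive cells of the HFD libraries (3.74% against 10.6% in WT, 2.95% against 7.58% in CKO), and 9 of 13 dissociation genes were lower. With summed thinned counts 3 members were higher and without dividing cells 7. Of the hypoxia-related genes 5 of 28 were higher, with Hilpda at 1.75 and Stc2 at 4.76, and 2 lower. The members higher here and lower in Lyve1-positive cells were 6: Slc2a1, Aldoa, Gapdh, Pkm, Ldha and Mif, which is 6 of the 9 and 6 of the 20. Of all members tested, 20 of 31 were lower in Lyve1-positive and 9 of 30 higher in Arg1-positive cells. The overlap was thus near the share among all members. Arg1-positive cells negative for Trem2 differed from Trem2-positive cells negative for Arg1 in Hif1a alone of 28 members tested (0.85 ± 0.16, edgeR adjusted p = 0.00867, against 0.844% higher of 8887 genes), and this call was lost without CKO HFD.

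Trem2-positive cells differed in 7 of 30 members, 4 higher and 3 lower, against 6.67% and 8.39% of 12972 genes. Pdk1 stood at 12.1, 9.68, 15.5 and 15.5 CPM against 8.02, 6.86, 10.6 and 9.49 CPM (0.65 ± 0.11, edgeR adjusted p = 0.00194). Hk3 had 0.51 ± 0.10, Mif 0.42 ± 0.12 and Bnip3l 0.30 ± 0.09. Pfkp, the platelet form of phosphofructokinase, stood at 57.4, 50.6, 69.2 and 92.1 CPM against 97.5, 70.4, 150 and 147 CPM (−0.68 ± 0.11, edgeR adjusted p = 0.00201). Hif1a had −0.40 ± 0.09 and Ddit4 −0.84 ± 0.24. All 7 had the same direction in each library. Without WT HFD 1 member was higher, without CKO HFD 2 and without CKO normal diet 7. Of the listed genes, Ldhb (1.31), Vegfa (0.77) and Plin2 (1.08) were higher, and 10 of 14 cell division genes were lower.

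Set directly against each other, Trem2-positive Lyve1-negative cells had more of 15 of 28 members than Lyve1-positive Trem2-negative cells and less of none, against 16.7% and 13.4% of 10322 genes. The 15 were 10 glycolytic genes and Pdk1, Ndrg1, Mif, Higd1a and Ankrd37. Slc2a1 had 1.21 ± 0.25, Mif 1.07 ± 0.13, Aldoa 0.98 ± 0.13, Slc16a3 0.98 ± 0.16 and Gapdh 0.89 ± 0.11 (edgeR adjusted p = 0.000137). Of the 15, 11 had the same direction in all 4 libraries, the exceptions being Tpi1, Pgk1, Ndrg1 and Ankrd37. Without CKO HFD 7 were higher. Of the dissociation list 7 of 13 were lower.

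Ccr2-positive cells had more Hk1 (0.34 ± 0.08), Hk2 (0.46 ± 0.08), Pfkp (0.53 ± 0.08) and Hif1a (0.41 ± 0.09) and less Hk3 (−0.38 ± 0.09) and the kinase Pdk1 (−0.37 ± 0.10), against 6.49% higher and 8.22% lower of 12596 genes. Hk2 stood at 57.5, 57.3, 124 and 121 CPM against 45.1, 45.1, 89.8 and 92.5 CPM, higher in each library (edgeR adjusted p = 0.00656). Hk3 was the reverse, at 19.5, 22.8, 27.9 and 25.4 CPM against 30.3, 27, 35.3 and 38.1 CPM (edgeR adjusted p = 0.0306). The hexokinases thus differed among themselves: Hk3 was higher in Trem2- and Lyve1-positive and lower in Ccr2-positive cells, and Hk2 lower in Lyve1-positive and higher in Ccr2-positive cells. All 14 cell division genes were higher in Ccr2-positive cells. Without CKO normal diet 2 members were higher, and without WT HFD 8. Without dividing cells, without CKO HFD or without CKO normal diet 1 member was lower.

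Whether these differences were alike under both diets was tested as an interaction, 2 HFD against 2 normal-diet libraries, a test chosen after seeing the data. For Trem2, 12 of 30 members differed between diets, against 7.92% of 12972 genes, all with a larger positive-less-negative difference under HFD. Over all UMIs, not thinned, Ldha stood at 367 and 317 CPM in Trem2-positive and 265 and 248.5 CPM in negative cells under HFD, and at 205 and 163 against 218 and 222 CPM under normal diet. Its difference was 0.85 ± 0.12 larger under HFD on the log2 scale (edgeR adjusted p = 4.16e-05). Slc2a1, Pgam1 and Pkm had 1.06 ± 0.24, 0.80 ± 0.12 and 0.72 ± 0.12. For Ccr2, 12 of 30 members differed, against 16.2% of 12596 genes, 11 of them with a smaller difference under HFD. Mif stood at 103 and 196 CPM in Ccr2-positive and 157 and 212 CPM in negative cells under HFD, and at 84.3 and 78.5 against 71.0 and 60.8 CPM under normal diet (−0.83 ± 0.18, edgeR adjusted p = 0.0251). Slc16a3 went the other way (0.52 ± 0.12). Ccr2-positive cells were deeper than negative ones under normal diet (median 6063 against 3713 UMIs in WT, 5898 against 3698 in CKO) and in CKO HFD (4609 against 3942), but not in WT HFD (14143 against 15544). Trem2-positive cells were deeper than negative ones under HFD (median 15701 against 13965 UMIs in WT, 5139 against 4090.5 in CKO). Under normal diet they were not (4912 against 4932 in WT, 4608 against 4862 in CKO). The part of depth in the diet difference was not tested for either gene.

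For Arg1 and Lyve1 the same edgeR test called 0 members (9 and 5 at an unadjusted p under 0.05), against 0.611% and 1.79% of genes. Between genotypes it called 0 members in any of the 4 sets (1 for Arg1 and 0 for the others at an unadjusted p under 0.05), against at most 0.234% of genes. Each interaction was fitted without the other, so differences between diets stayed in the spread of the genotype test. For Ldha with Trem2 the SE was 0.36 between genotypes and 0.12 between diets. The count of 0 therefore does not show that the differences were equal in both genotypes. Without CKO normal diet 5 members passed the threshold for Trem2, and for Ccr2 the count stayed between 10 and 17. These interaction fits have 2 residual degrees of freedom.

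**Figure D5:**
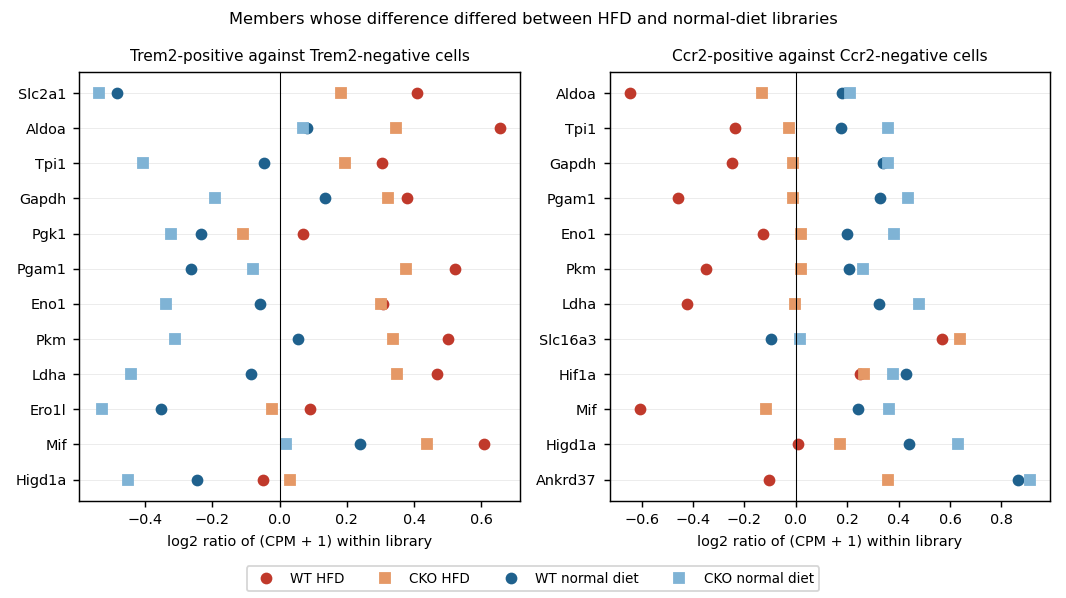
Log2 ratio of (CPM + 1) between positive and negative cells within each library, for the members whose difference differed between diets, for Trem2 (left) and Ccr2 (right). In the Trem2 panel both HFD libraries lie right of both normal-diet libraries for each member, and in the Ccr2 panel left of them except for Slc16a3.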

How the data were processed

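Per cell and gene the deposited matrices hold raw UMI counts, made with Cell Ranger 7.0.0 per the file headers, on GRCm38 per the submitters' processing notes. No source used here says whether intronic reads were counted. Cells with at least 500 UMIs, 300 genes and at most 10% mitochondrial UMIs were kept (Python 3.11.15, scanpy 1.11.5, scipy 1.17.1). Scrublet called 3, 0, 0 and 0 cells, so it did not work, and no doublets were removed in the values given. Each cell was thinned to 2000 UMIs for levels, leaving out 67, 1076, 675 and 820 shallower cells. Groups of 1 library were compared by ratios of (CPM + 1) without a test. Sets were compared on summed raw counts with edgeR 4.0.16 (R 4.3.3), with library as a block and the defining gene left out, and DESeq2 1.42.0 was an alternative. These fits have 3 residual degrees of freedom, and were tested on simulated data. Whether a library pools several animals is not given, so p-values measure only the spread between these libraries. Cells with at least 3 thinned UMIs of a list were called dividing or of another type.

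All members are accounted for, those past a call by name and the others by range and count. Of the related lists, up to 6 genes per comparison were to be named, by size, and Taldo1, Tkt, Slc2a3, Ldhb, Stc2 and a few others were chosen after their values were seen. The members and lists were chosen with earlier results of these data known, and the interaction tests after seeing the data.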

Additional observations from a re-analysis of the deposited data

Results flagged for a closer look

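The difference between positive and negative cells was not the same under both diets for 12 members with Trem2 and 12 with Ccr2, by edgeR's quasi-likelihood test of the interaction with Benjamini-Hochberg adjustment. For Trem2 the log2 difference under HFD less that under normal diet was 1.06 for Slc2a1, 0.85 for Ldha, 0.80 for Pgam1, 0.72 for Pkm, 0.68 for Ero1l, 0.67 for Eno1, 0.65 for Tpi1, 0.61 for Aldoa, 0.57 for Mif, 0.56 for Gapdh, 0.51 for Higd1a and 0.44 for Pgk1. For Ccr2 it was −0.99 for Ankrd37, −0.83 for Mif, −0.79 for Pgam1, −0.78 for Ldha, −0.75 for Aldoa, −0.64 for Gapdh, −0.61 for Higd1a, −0.57 for Tpi1, −0.56 for Pkm, 0.52 for Slc16a3, −0.51 for Eno1 and −0.30 for Hif1a. Both HFD libraries lay on the same side of both normal-diet libraries for each of these. Ero1l with Trem2 and Hif1a with Ccr2 did not pass once dividing cells were left out.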

How the results depend on the processing

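Scaling moved the counts across groups. With TMM or DESeq2 size factors, 5 members were higher and 1 lower in CKO HFD, 3 were lower under HFD in WT, and 12 were higher and 2 lower under HFD in CKO. Centred by gene span, 5 were higher in CKO HFD, 4 higher and 3 lower under HFD in WT, and 1 lower under HFD in CKO. Thinned to 1000 UMIs, 1 member was lower in CKO normal diet and Ndrg1 reversed in the WT diet comparison, to −0.023. Thinned to 4000 UMIs, 2 were higher under HFD in WT, and with a pseudocount of 10 CPM 4 were lower. Without the library block 0 members were called in any of the 6 set comparisons. A library entered a fit only with at least 20 cells in both sets. Requiring at least 2 UMIs gave 12 members higher for Trem2 and 1 lower for Trem2 against Lyve1. For Arg1 it gave 18 higher, from the HFD libraries alone, since WT and CKO normal diet held 12 and 8 positive cells. Arg1 against Trem2 could not be fitted at that limit. Thinned sums gave 3 higher for Arg1, 1 lower for Ccr2 and 2 higher for Arg1 against Trem2. Sets from 1000 UMIs gave 15 higher for Arg1, without WT normal diet, which held 17 positive cells. Without the low-count filter 6 were lower for Trem2, 7 higher and 1 lower for Ccr2, 1 lower for Trem2 against Lyve1 and 2 higher for Arg1 against Trem2. Library totals gave 1 lower and 2 higher for these last. DESeq2, or leaving out dividing cells, gave 1 lower for Ccr2. The cause was not tested in any of these.

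Leaving out each library gave 1 to 7 members higher and 2 to 4 lower for Trem2, 3 to 14 and 0 to 1 for Arg1, 2 and 15 to 18 for Lyve1, 2 to 8 and 1 to 2 for Ccr2, 7 to 14 and 0 to 1 for Trem2 against Lyve1, 0 to 1 and 0 for Arg1 against Trem2, and 5 to 13 and 10 to 17 members for the diet differences of Trem2 and Ccr2. No paired analysis was possible because each group is 1 library, for comparisons between groups; comparisons between sets have library as a block. Depth limits Egln3, Ddit4 and Adm most.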
